A study of Caenorhabditis elegans with 2 samples.

Results

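The genes described here are the 129 genes annotated as small nuclear RNA (snRNA) on the 6 chromosomes of Caenorhabditis elegans, out of 46890 annotated genes. They were taken by biotype from the Ensembl annotation of the WBcel235 assembly, without use of any peak. Of these, 30 were spliced leader genes by symbol, namely 12 sls-1 genes, called SL1 genes here, and 18 sls-2 genes, called SL2 genes. The other 99 comprised 10 smy genes, which encode SmY RNAs, and 89 genes whose RefSeq product does not state a U class.

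The peaks come from sequencing of chromatin bound by KLU-1, a zinc finger protein encoded by klu-1 (ZK337.2). The animals were whole L4 larvae of strain RW12326, in which CRISPR had placed a TY1::EGFP::3xFLAG tag at klu-1, collected at 47 h after synchronisation as L1 larvae starved following bleaching. Sonicated chromatin was recovered with an antibody to GFP in 2 biological replicates, which formed the only group. Every library carried the tag, an untagged strain and an input library were not analysed here, and the depth of each library was unknown, since no read counts accompany the peaks.

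Small nuclear RNAs are the RNA cores of the spliceosome, where U1 and U2 recognise the ends of the intron and U4, U5 and U6 join as a unit. In nematodes many messages also receive a short leader by trans-splicing, SL1 on most and SL2 mainly on the downstream genes of operons, and SmY RNAs are nematode snRNAs linked to that reaction. RNA polymerase II makes most of these RNAs and RNA polymerase III makes U6, and in both cases the SNAPc complex reads a proximal sequence element upstream of the gene, with a TATA box added in U6 promoters.

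The 89 remaining genes were sorted by short words that the class is known to hold. ACTTACCTG gave 12 U1-type genes, GTAGTATC 19 U2-type genes, TTTGCGC 5 U4-type genes, GCCTTTTAC 11 U5-type genes and ACAGAGA 22 U6-type genes. The remaining 20 held none of these words and are called ungrouped. Searched on the gene's strand in the 346 snoRNA genes, TTTGCGC was in 0.867%, ACAGAGA in 0.289% and the other words in 0. The words were chosen after peak values had been seen, and a match of letters does not show that a gene copy is expressed.

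The sequences below run from 80 bases upstream of the annotated 5′ end through the first 22 bases of the gene, on the gene's strand, and are from the RefSeq WBcel235 genome. Capitals mark the 8 words of 6 letters found in the largest number of distinct 100 bp upstream windows of snRNA genes, identical windows being counted once, and the TATA word TATATAA. The first set is shown because these U6-type genes had a KLU-1 summit near their start. They lie at chrIII:10989599-10989700 (+), chrIII:5080877-5080978 (-), chrIV:4930874-4930975 (+), chrIII:4414105-4414206 (+) and chrIII:4426934-4427035 (-).
W05B2.8: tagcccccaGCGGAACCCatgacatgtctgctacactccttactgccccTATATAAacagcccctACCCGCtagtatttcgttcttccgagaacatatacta
F54D8.7: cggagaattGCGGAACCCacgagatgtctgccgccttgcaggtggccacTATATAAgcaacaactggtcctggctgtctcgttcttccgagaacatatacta
Y9C9A.111: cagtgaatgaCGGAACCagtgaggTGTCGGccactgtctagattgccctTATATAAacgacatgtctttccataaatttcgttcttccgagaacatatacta
R07E5.16: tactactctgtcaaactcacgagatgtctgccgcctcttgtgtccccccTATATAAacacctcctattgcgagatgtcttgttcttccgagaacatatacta
C28A5.7: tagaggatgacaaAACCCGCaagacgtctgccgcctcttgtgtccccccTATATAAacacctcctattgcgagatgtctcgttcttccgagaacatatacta

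For comparison, 2 U6-type genes with no thresholded summit are shown, at chrIV:4885628-4885729 (-) and chrIV:13435865-13435966 (-). Their first 22 bases are the same as those above, and both hold TATATAA.
T08B6.62: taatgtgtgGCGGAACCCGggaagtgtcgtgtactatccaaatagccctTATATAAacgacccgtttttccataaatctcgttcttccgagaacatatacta
K09B11.11: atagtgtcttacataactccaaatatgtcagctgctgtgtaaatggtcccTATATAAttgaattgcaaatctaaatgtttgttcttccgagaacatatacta

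The next set holds SL2 genes with a summit, shown because the leader genes split by family, at chrII:5543518-5543619 (+), chrII:5844785-5844886 (+), chrIII:11090930-11091031 (+), chrIII:11090502-11090603 (-) and chrIII:12250385-12250486 (+). The first bases of each gene are the start of the leader itself.
sls-2.2: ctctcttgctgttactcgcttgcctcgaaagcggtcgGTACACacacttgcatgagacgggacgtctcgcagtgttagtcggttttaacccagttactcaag
sls-2.1: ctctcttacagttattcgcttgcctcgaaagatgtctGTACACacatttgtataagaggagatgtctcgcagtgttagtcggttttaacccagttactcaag
sls-2.15: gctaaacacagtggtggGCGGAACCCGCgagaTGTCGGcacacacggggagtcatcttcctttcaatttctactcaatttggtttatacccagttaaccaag
sls-2.14: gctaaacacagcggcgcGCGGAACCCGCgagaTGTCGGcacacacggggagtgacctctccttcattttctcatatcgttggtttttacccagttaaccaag
sls-2.8: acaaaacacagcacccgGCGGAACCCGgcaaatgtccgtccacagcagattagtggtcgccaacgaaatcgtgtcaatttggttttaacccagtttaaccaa

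The last set holds leader genes without a summit of the pooled thresholded list, namely sls-2.3 at chrII:5544252-5544353 (-), sls-2.10 at chrIV:9130808-9130909 (-) and sls-1.2 at chrV:17131140-17131241 (-). The window of sls-1.2 holds none of the marked words, but it holds ACGCGC, an unmarked word found at 34 snRNA genes, 10 of them SL1 genes with near-identical windows, and at 0.941% of coding genes.
sls-2.3: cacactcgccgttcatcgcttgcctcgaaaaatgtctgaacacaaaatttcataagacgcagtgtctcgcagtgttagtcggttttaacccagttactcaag
sls-2.10: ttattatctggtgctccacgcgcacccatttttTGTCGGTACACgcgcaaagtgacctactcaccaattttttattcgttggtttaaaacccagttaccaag
sls-1.2: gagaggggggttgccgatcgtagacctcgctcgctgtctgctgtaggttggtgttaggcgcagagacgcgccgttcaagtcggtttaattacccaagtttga

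The authors' thresholded list made from both replicates placed a peak summit at 18 of the 129 snRNA genes. The SL2 genes had 7 of these summits and the U6-type genes 6, and the other 5 were spread over 2 U1-type genes and 1 each of the U2-type, U5-type and ungrouped genes. No SL1, SmY or U4-type gene had one. A gene was counted when a summit lay within 200 bp of its annotated interval. The share was 14% of snRNA genes (Wilson 95% interval 9.01 to 21, over genes), against 2.80% of all 46890 genes. Here and below, all genes include 15363 piRNA genes, of which 0.0521% had a summit, and this lowers the share. Protein-coding genes had a summit at 3.41%. Counted within 200 bp of the annotated 5′ end alone, the same number of snRNA genes, 18, was reached, against 1.76% of all genes. The share lay below that of tRNA genes (232 of 612, 37.9%), near that of snoRNA genes (61 of 346, 17.6%) and above that of miRNA genes (7 of 261, 2.68%). No test was made of these shares, since the gene set was chosen with earlier results known, many copies share sequence and neighbours can share a peak.

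Between families the shares ranged widely, on few genes each. SL2 genes had a summit in 7 of 18 (38.9%, Wilson 95% interval 20.3 to 61.4) and U6-type genes in 6 of 22 (27.3%, 13.2 to 48.2). U1-type genes had 2 of 12, U5-type genes 1 of 11, U2-type genes 1 of 19 and ungrouped genes 1 of 20. The counts of 0 allowed a share of up to 24.2% for the 12 SL1 genes, 27.8% for the 10 SmY genes and 43.4% for the 5 U4-type genes by the Wilson interval. These intervals cover counting error over genes only, and those of SL1 and SL2 overlap, as do those of U6-type and U2-type genes.

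**Figure D1:**
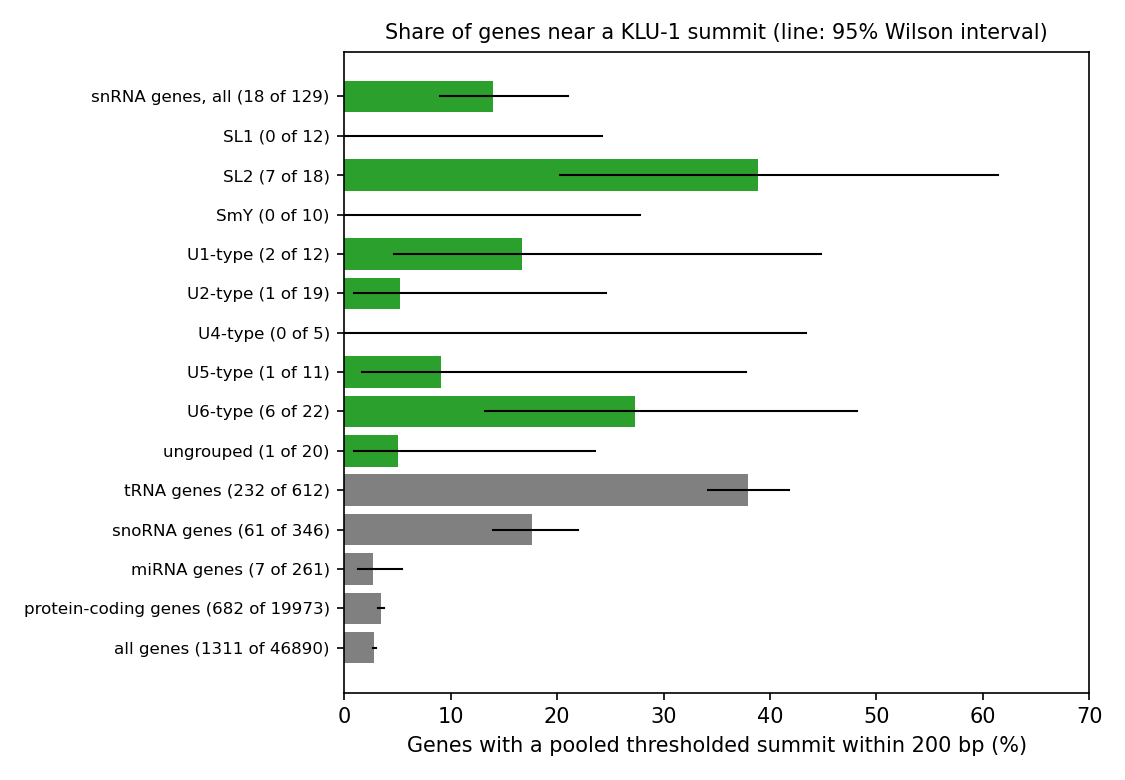
Percent of genes with a summit of the pooled thresholded list within 200 bp, for snRNA genes and their families (green) and for other gene classes (grey); bars start at 0, lines are 95% Wilson intervals over genes and numbers of genes are in brackets. SL2 genes (38.9%) and U6-type genes (27.3%) have the longest green bars, with wide intervals, and all genes stand at 2.80%.

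Each replicate's own list was shorter and gave fewer genes. Replicate 1 placed a summit at 11 snRNA genes (8.53%), against 1.60% of all genes, and replicate 2 at 9 (6.98%), against 1.12% of all genes. Summits in both replicate lists were found at 6 snRNA genes (4.65%), against 0.879% of all genes. These 6 were W05B2.8, F54D8.7, sls-2.1, sls-2.2, sls-2.4 and sup-6. Of the 18 genes, 4 were in the list of replicate 1 and not that of replicate 2, 3 the reverse, and 5 in neither, so they passed only with both replicates together. Among SL2 genes each replicate alone gave 5 genes and among U6-type genes each gave 3.

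From the side of the peaks, 19 of 1043 thresholded summits (1.82%, Wilson 95% interval 1.17 to 2.83) lay within 200 bp of an snRNA gene, since F38E11.10 had a pair of them. Of the 127188 ranked summits that did not pass, 91 did (0.0715%). Peaks at the 18 genes were of ordinary strength for the list. Their median signal, a peak strength on the authors' scale, was 78.04 (54.7 to 180.7), against 78.82 over all 1043 peaks.

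The U6-type genes carried the strongest peak of the set. U6 RNA forms the catalytic centre of the spliceosome together with U2. W05B2.8 (WBGene00014543, chrIII:10989679-10989780, plus strand, in an intron of dhc-4) had a pooled signal of 180.7, which was rank 79 of 1043, with its summit at position 10 bp from the annotated 5′ end. Replicates 1 and 2 gave it 96.89 and 87.74, both in their thresholded lists. Here and below, a negative position is upstream of the 5′ end and a positive one downstream.

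F54D8.7 followed among the U6-type genes, with a pooled signal of 96.62 at -46 bp and replicate signals of 46.81 and 52.36, again in both lists. Y9C9A.111 had 86.4 at -14 bp, with 44.13 in replicate 1 and 42.52 in replicate 2, which are close to each other but in neither thresholded list. K09C6.12 had 77.49 at -10 bp, with 43.24 in the list of replicate 1 and 29.32 as a ranked peak of replicate 2. This gene overlaps an exon of the coding gene K09C6.2, and the summit lies at -158 bp from the nearest transcript start of K09C6.2, so the peak is also in a coding promoter.

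The remaining U6-type genes were weaker. R07E5.16, in an intron of the mitochondrial pyruvate carrier gene mpc-1, had a pooled signal of 71.23 at 31 bp, with 31.58 as a ranked peak of replicate 1 and 48.73 in the list of replicate 2. C28A5.7 had 54.7 at -28 bp, the lowest of the 18 genes, with 31.99 and 28.87 in the ranked lists of replicates 1 and 2. All 6 U6-type summits of the pooled list lay within 50 bp of the 5′ end (-46 to 31 bp, median -12 bp). In the replicate lists 3 of 3 did in replicate 1 and 2 of 3 in replicate 2.

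Of the 22 U6-type genes, 17 have an identical copy. The family held 7 distinct sequences, and 14 of them shared 1 sequence, W05B2.8 included. The 6 genes with a summit held 2 distinct sequences, and a median of 63.2% of their 31-base words within 100 bp of the gene occurred once in the genome, against 52.4% for the 16 without a summit. How the authors placed reads that match several copies is not given in the sources used here, so the signals of single copies, W05B2.8 included, are uncertain.

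The genes K09B11.11 to K09B11.16 lie in a cluster on chromosome IV, and no thresholded summit was found at them. The highest ranked peak of the cluster, shared by K09B11.13 and K09B11.14, had a signal of 27.26. T08B6.62 was the U6-type gene with the strongest peak that did not pass, at 51.59. Of the 12 U6-type genes on chromosome IV, 1 had a thresholded summit, against 4 of the 7 on chromosome III. The K09B11 cluster is part of the former, and shares over all genes of each chromosome are not given here.

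The SL2 genes had the most summits of any family. Their RNAs donate the leader that lets genes inside an operon be separated into single messages. The highest was sls-2.2 (WBGene00004834, chrII:5543598-5543707, plus strand), with a pooled signal of 150.4, rank 121 of 1043, and a summit at 26 bp. Replicates 1 and 2 gave sls-2.2 nearly equal signals of 77.87 and 78.36, both in their thresholded lists.

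On the same chromosome sls-2.1 (WBGene00004833, chrII:5844865-5844974, plus strand) had 113.4 at -10 bp, with 60.68 and 54.53 in the lists of replicates 1 and 2. The gene sls-2.4, on chromosome I, had 106.8 at 5 bp, with 57.35 and 59.97 in the lists of both replicates. These 3 genes were the only SL2 genes in both replicate lists.

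A divergent pair of SL2 genes lies in W09D6.5 on chromosome III. The plus-strand gene sls-2.15 had a pooled signal of 92.42 with its summit at 125 bp, past the end of the 112 bp gene, and replicate signals of 29.14 in the list of replicate 1 and 52.18 as a ranked peak of replicate 2. Its minus-strand neighbour sls-2.14 had 77.52 at -30 bp, with 31.77 as a ranked peak of replicate 1 and 48.85 in the list of replicate 2. At both genes the signal was higher in replicate 2.

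The gene sls-2.9, on chromosome I, had 84.07 at -66 bp, with 50.72 in the list of replicate 1 and 34.67 as a ranked peak of replicate 2. Its summit lay 66 bp from the tRNA gene M01E5.t1, so the peak cannot be assigned to either gene from its position. For sls-2.8 the pooled signal was 73.03 at -30 bp, with 26.47 as a ranked peak of replicate 1 and 51.12 in the list of replicate 2. That summit also falls in the promoters of the coding genes tim-1 (-271 bp) and Y75B8A.23 (-225 bp).

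The other 11 SL2 genes had no thresholded summit in the pooled list, although 10 of them had a ranked peak. The strongest was sls-2.3, with 50.48 in the pooled ranked list, 28.98 in replicate 1 and 36.24 in replicate 2. It lies beside sls-2.2 and shares its first 22 bases, yet its pooled signal was well below the 150.4 of sls-2.2. Next came sls-2.10 at 40.46, sls-2.18 at 36.1, sls-2.16 at 31.61 and sls-2.12 at 31.25. Lower signals were given at sls-2.13 (25.65), sls-2.11 (24.17), sls-2.7 (22.47), sls-2.6 (21.42) and sls-2.5 (20.71), and sls-2.17 had only a replicate 2 peak of 11.63.

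SL2 genes are less repetitive than U6-type genes, with 18 distinct sequences among 18 genes. The median share of unique 31-base words was 96.5% at the 7 with a summit and 76.1% at the 11 without. By chromosome, summits lay at 3 of 6 SL2 genes on III, 2 of 3 on II, 2 of 4 on I and 0 of 5 on IV. These counts are small, and shares over all genes of each chromosome are not given here.

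The SL1 genes differed from the SL2 genes in what the lists could show. SL1 genes lie in a tandem array on chromosome V, and the 12 genes held 2 distinct sequences. At 11 of the 12, none of the 31-base words within 100 bp occurred once in the genome, and at the remaining gene, sls-1.12, 11.2% did. Neither replicate's ranked list had a peak at any SL1 gene. The pooled ranked list had a peak at sls-1.12 (signal 23.33) and at sls-1.1 (2.39). How reads from such repeats were treated is not given in the sources used here, so absence of KLU-1 and sequence that could not be scored cannot be told apart here.

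The 10 SmY genes had a median of 100% unique words and no thresholded summit, where the Wilson interval allows a share of up to 27.8%. Whether repeated sequence bears on the summits was not tested. Their ranked peaks, at 5 genes, had a median signal of 20.73, and the highest was at smy-1 (27.54). The U2-type genes were more repetitive, with a median of 34.7% unique words, and 1 of 19 had a summit.

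**Figure D2:**
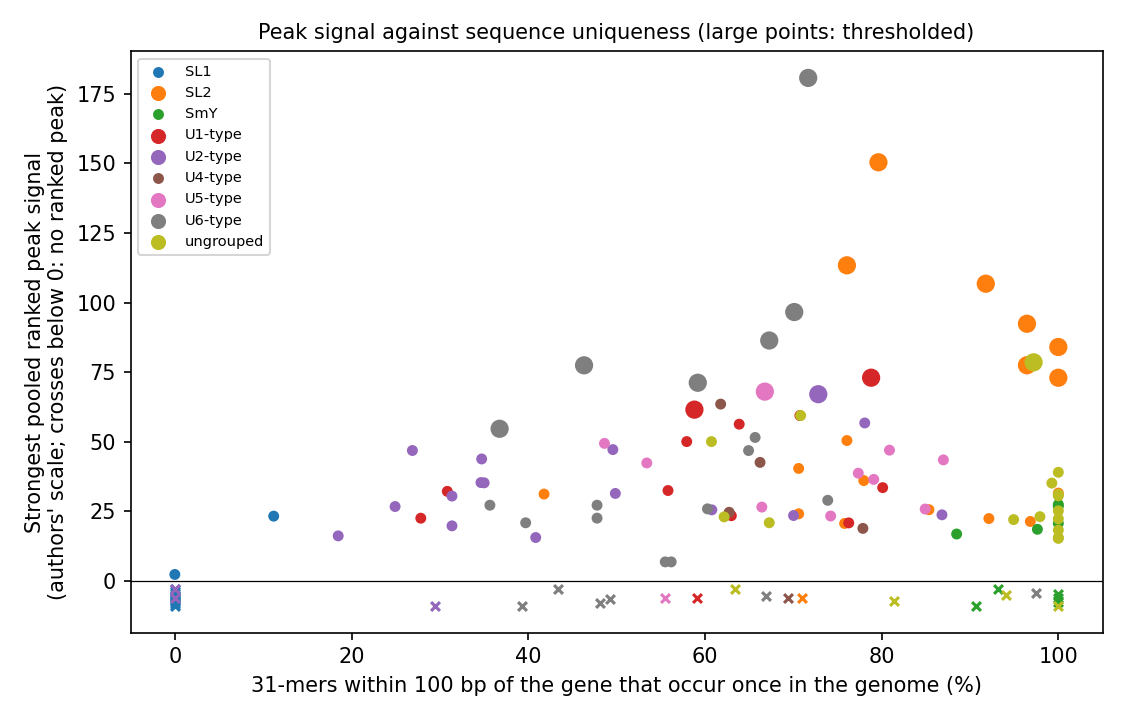
Signal of the strongest pooled ranked peak within 200 bp of each snRNA gene (vertical, authors' scale) against the percent of 31-base words within 100 bp of the gene that occur once in the genome (horizontal); large points passed the threshold, small ones did not, and crosses below 0 are genes with no pooled ranked peak, spread vertically for legibility. SL1 genes sit at the left edge without large points, while SmY genes sit near 100% also without large points.

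In the other families thresholded summits were few. U1 RNA pairs with the 5′ splice site, and sup-6, a suppressor locus that encodes a U1 RNA, had a pooled signal of 73.04 at 126 bp, inside the gene. Replicates 1 and 2 gave sup-6 41.68 and 42.99, both in their thresholded lists, and it was the only gene outside the SL2 and U6-type families with that. The U1-type gene F08H9.11 had 61.57 at 81 bp, with ranked signals of 28.98 and 30.37, and its summit lay -406 bp from the start of srz-97.

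The U5-type gene F38E11.10 had a pair of thresholded summits, at 287 bp (68.05) and -98 bp (63.45), on either side of the 122 bp gene. The first lies inside the neighbouring small heat shock protein gene hsp-12.3. In replicate 1 the only ranked peak within 200 bp of F38E11.10 had a signal of 42.46 at -106 bp. In replicate 2 the stronger of a pair of ranked peaks had 38.77 at 282 bp, so these values belong to different peaks, and neither passed. The U2-type gene Y57G11C.35, in an intron of Y57G11C.5, had 67.12 at 54 bp, with 29.74 and 29.6 in the ranked lists. On chromosome X the ungrouped gene M163.13 had 78.57 at 15 bp, with 42.57 in the list of replicate 1 and 37.97 as a ranked peak of replicate 2.

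**Figure D3:**
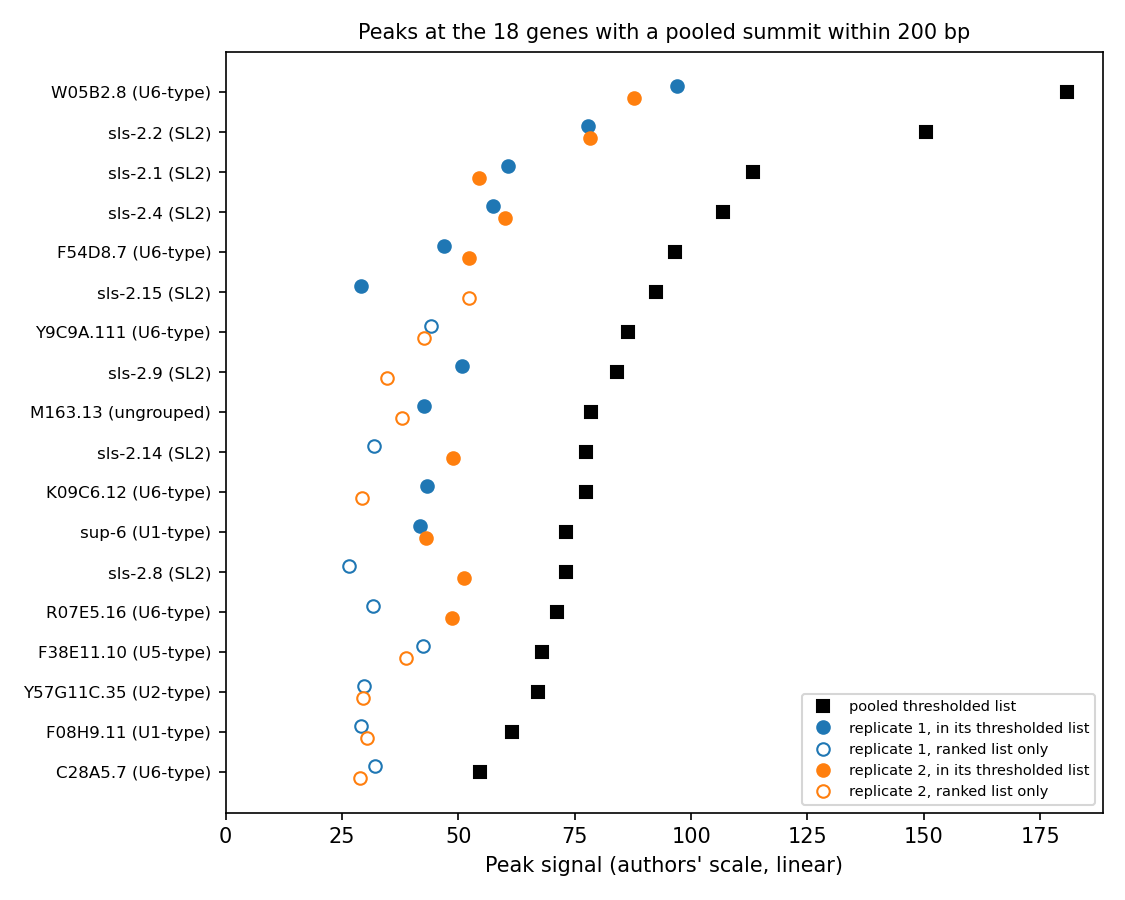
Peak signal (authors' scale, linear) at the 18 snRNA genes with a summit of the pooled thresholded list; squares are the pooled list, and blue and orange circles are replicates 1 and 2, filled where the peak is in that replicate's thresholded list (at F38E11.10 the 2 circles are different peaks). W05B2.8 and sls-2.2 lie furthest right in all lists, and at every gene the pooled signal exceeds that of either replicate, whose lists were called separately.

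The order of the signals was shared in part between replicates. At the 18 genes the signal of replicate 1 over that of replicate 2 had a median ratio of 0.999, between 0.518 at sls-2.8 and 1.47 at K09C6.12, and 9 of the 18 genes were higher in replicate 1. At F38E11.10 the 2 replicates had different peaks, and over the other 17 genes, whose replicate summits lay within 200 bp of each other, the median ratio was 0.994, with 8 higher in replicate 1. Over the 62 snRNA genes with a ranked peak in both replicates, Spearman's rho was 0.636 and Pearson's r of the log2 signals 0.696. Over the 56 of them whose replicate summits lay within 200 bp of each other, rho was 0.645 and r 0.709. These correlations run across genes, some of which share a peak, and are given as a description. The ratios are a description too, since signals were not rescaled between replicates and depth is unknown.

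Most snRNA genes without a thresholded summit still had a weaker peak. A pooled ranked peak of any strength lay at 97 of the 129 genes (75.2%), but also at 65.3% of all genes. The latter include 15363 piRNA genes, which had one at 23.2%. The share was 91.8% at protein-coding genes, 91.5% at tRNA genes, 81.5% at snoRNA genes and 67.4% at miRNA genes. Such a peak therefore sets snRNA genes little apart. The strongest ranked peak had a median signal of 31.48 at snRNA genes, against 29.37 over the 30626 genes of any kind with one. In replicate 1 the median was 19.7 at snRNA genes, against 16.94 at all genes, and in replicate 2 it was 19.66 at snRNA genes, against 18.35 at all genes. By family the pooled medians were 40.59 at U5-type genes, 40.46 at SL2 genes, 37.95 at U6-type genes, 33.67 at U4-type genes, 33.57 at U1-type genes and 31.01 at U2-type genes. Ungrouped genes had a median of 24.19, SmY genes 20.73 and the 2 SL1 genes with a peak 12.86, all below the median over genes of any kind.

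The strongest peaks that did not pass were close in signal to the weakest that did. The U4-type gene C52E4.8 had 63.56 at -29 bp, above 54.7 at C28A5.7, and it is in the authors' conservative list together with sls-2.3. Its −log10 of the irreproducible discovery rate was 1.857. sup-39, another suppressor locus for U1, had 59.46, with 38.69 in replicate 1 and 20.12 in replicate 2. The same peak counts for mir-1831, a 22 bp gene inside sup-39 that carries the snRNA biotype. C05G6.4, U2-type, had 56.79, and T08G5.11, U1-type, had 56.35. F32B5.9, a U5-type gene, was in the thresholded list of replicate 1 (34.39) with no pooled summit. In all, 24 snRNA genes had no peak in any of the 3 ranked lists.

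Summits of the pooled list mostly lay near the gene start. Replicates 1 and 2 placed the summit at -10 and 58 bp at F54D8.7 and at 3 and 69 bp at sls-2.2. At W05B2.8 they gave -12 and -11 bp. The median snRNA gene is 109 bp long, so start, gene body and upstream element are not well resolved. Over the 18 genes, using the summit nearest to the 5′ end, the median position was -2.5 bp (-98 to 126 bp), and 12 summits lay within 50 bp of the start. SL2 genes had a median of -10 bp and U6-type genes one of -12 bp. The 5 summits of the other families had a median of 54 bp, with 1 upstream. In the thresholded lists of single replicates, the summit lay within 50 bp at 9 of 11 genes in replicate 1. In replicate 2 it did at 5 of 9, with a range of -110 to 119 bp.

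**Figure D4:**
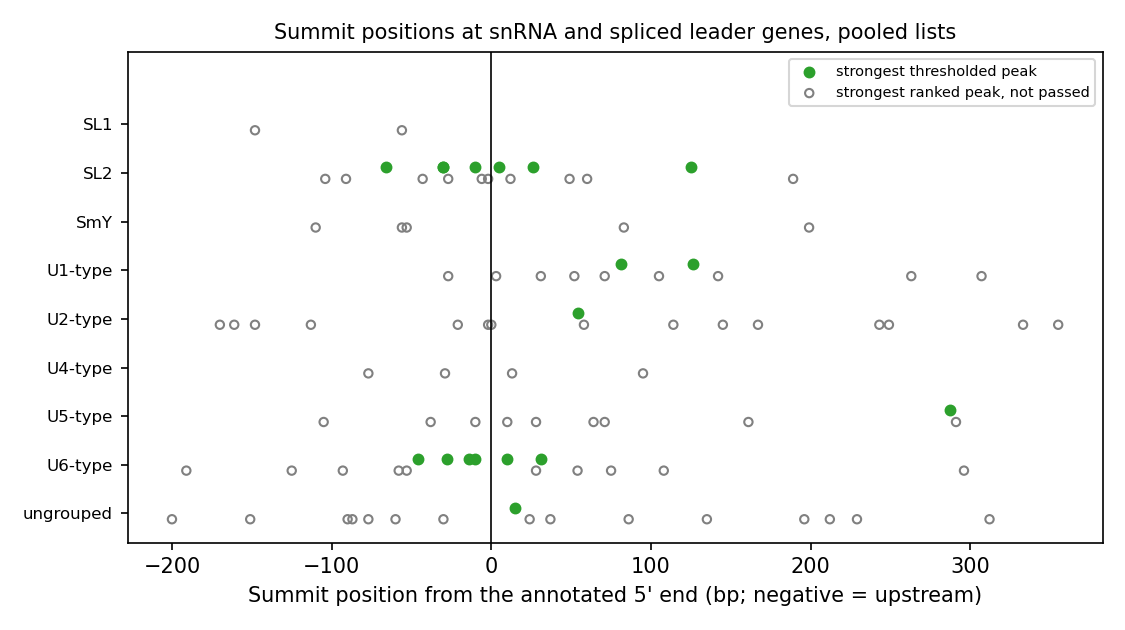
Position of the summit of the strongest peak at each snRNA gene relative to its annotated 5′ end (bp, negative upstream), by family; filled points are thresholded peaks and open points ranked peaks that did not pass, and sls-2.8 and sls-2.14 coincide at -30 bp. The 6 U6-type filled points lie between -46 and 31 bp, whereas open points spread over the whole window.

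About as many of the 18 genes lay inside coding genes as outside. Of 63 snRNA genes within a coding gene 9 had a summit, and of 66 outside 9 did. Of the 9 within a coding gene, all but K09C6.12 were intronic and all but sls-2.14 were on the strand of the host. Most hosted snRNA genes without a summit were intronic too, so that trait is not particular to the 9. Those without a summit lay on either strand of their hosts, and the strand was not tested. By chromosome, summits lay at 7 of 13 snRNA genes on III, 3 of 16 on II, 2 of 16 on I, 3 of 41 on IV, 2 of 40 on V and 1 of 3 on X. Shares over all genes of each chromosome are not given here, so these counts do not show a preference for any chromosome. Families are also spread unevenly, and the SL1 genes, which had little unique sequence, all lie on V. Apart from the summits that lie near a tRNA, snoRNA, rRNA or miRNA gene or in a coding promoter, 14 of the 18 genes remained. Genes annotated only as ncRNA were not part of that filter, and several of the remaining summits lie at one. Those at sls-2.2, sls-2.4 and Y57G11C.35 fall inside an ncRNA gene on the opposite strand.

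The upstream words of 6 letters capitalised in the sequences above were found without regard to peaks. Within 100 bp upstream, on the gene's strand, AACCCG was present at 43 snRNA genes (33.3%), against 0.886% of 19973 coding genes, and it started at a median of -58 bp. TGTCGG was present at 42 snRNA genes (32.6%), against 0.781% of coding genes, at a median of -47 bp. The other words were ACCCGC (37 genes, against 0.671% of coding genes), GTACAC (35, 1.13%), CGGAAC (34, 0.746%), GCGGAA (34, 1.05%), GAACCC (33, 0.591%) and GGAACC (32, 0.541%). Except for TGTCGG and GTACAC, which overlap each other in sls-2.10, these words overlap in a single longer run, as in sls-2.14. On either strand, AACCCG was at 34.9% of snRNA genes, against 1.61% of coding genes, and TGTCGG at 32.6% of snRNA genes, against 1.68% of coding genes. The remaining 6 words were on either strand at up to 33.3% of snRNA genes and up to 3.39% of coding genes.

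Genes with and without a summit both held these words. AACCCG was at 7 of the 18 genes with a summit and at 36 of the 111 without, and TGTCGG at 9 of the 18 with a summit and 33 of the 111 without. Families could differ in direction. ACCCGC was at 3 of 6 U6-type genes with a summit and 0 of 16 without, but at 2 of 7 SL2 genes with one and 7 of 11 without. AACCCG was at 2 of 6 and 3 of 16 U6-type genes, and at 3 of 7 and 7 of 11 SL2 genes. These small counts were not tested. Over all snRNA genes the TATA word showed a larger gap. TATATAA, searched after the values had been seen, was at 7 of the 18 genes with a summit and 11 of the 111 without, against 2.83% of coding genes on the gene's strand and 4.05% on either. Of the 18 genes with it, 15 were U6-type. It was at all 6 U6-type genes with a summit and at 9 of the 16 without, so most U6-type genes with the word had no thresholded peak. The shorter TATAA was at 8 of the 18 genes with a summit and 15 of the 111 without, against 21.3% of coding genes.

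GAGAG, the core of GAGA elements, and the zinc finger type words GTGGG and CACCC were counted in the same windows. On the gene's strand GAGAG was at 2 of the 18 genes with a summit and 15 of the 111 without, against 4.61% of coding genes. Of the 15, 10 were SL1 genes with near-identical windows, and the word was in 10 of 119 distinct windows. GTGGG was at 2 genes with a summit and 2 without, against 2.52% of coding genes. CACCC was at 2 genes with a summit and 23 without, against 4.44% of coding genes. On either strand GAGAG was at 36.4% of snRNA genes and 17% of coding genes. GTGGG on either strand was at 27.1% of snRNA genes and 8.31% of coding genes, and CACCC at 19.4% of snRNA genes and 6.46% of coding genes. A match to any of these words is a match of letters in a window and does not identify a bound site.

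Genes for proteins that make or use these RNAs were examined at their promoters, taken as the stretch that begins 500 bp before a transcript start and ends 100 bp after it. Of 68 listed genes 61 were matched by symbol, and 3 had a promoter summit (4.92%, Wilson 95% interval 1.69 to 13.5), against 2.27% of 19973 coding genes. The interval includes the share of all coding genes. snr-1, which encodes a protein of the Sm ring around snRNAs, had a signal of 105.5 at -414 bp, with 52.14 in the list of replicate 1 and 48.95 as a ranked peak of replicate 2. rnp-2, which encodes a spliceosomal snRNP protein, had 64.95 at -160 bp, with 33.55 and 34.84 in the ranked lists. ints-4 encodes a subunit of Integrator, the complex that cleaves the 3′ ends of snRNAs, and had 56.31 at 40 bp, with 22.38 and 31.34 in the ranked lists. None of 9 genes for SNAPc and TBP, 3 for the spliced leader snRNP, 7 for the LSm ring and 6 for snRNA maturation had one.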

How the data were processed

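Peak lists from 2 replicates of anti-GFP chromatin immunoprecipitation were used, together with lists made from both. The lists are on assembly ce11, per the file descriptions. What aligned the reads, called the peaks and handled reads that match several places is not given in the sources used here. Each deposited peak has a signal, the strength set by the authors' peak caller on a scale that is not stated. The authors also deposited a score derived from the irreproducible discovery rate (IDR), which was read and not used for any result. The deposited ranked lists further hold the −log10 of the IDR. In each pooled ranked list, 8 columns without a sample name were not used. Signals are the authors' own and were not rescaled between lists. Ranks and medians are taken within a list. Signals of different lists are set side by side, for the replicates also as ratios, as a description only. Depth is unknown, so no precision could be derived from it.

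Genes came from Ensembl release 115 and symbols from RefSeq by gene ID (129 of 129 matched). A gene counted as near a peak when a summit lay within 200 bp. Genes named are all those with a pooled summit, the 5 strongest of the others in the pooled ranked list, every sls-2 gene and pathway genes with a promoter summit; further names were picked with their values known. The members and all lists were chosen with earlier results of these data known, and the design gives no test. Replicates are those numbered as biological in the labels. Code that finds summits near genes was tested on simulated data. Alternatives were distances of 100 and 500 bp, 5′ ends, peak overlap, the conservative list, peaks at or above the median signal, each replicate's list, 8-letter words, windows of 200 bp and promoters of 1000 bp. Wilson 95% intervals cover counting error only. Python 3.11.15, numpy 2.4.6, pandas 2.3.3 and scipy 1.17.1 were used.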

Additional observations from a re-analysis of the deposited data

How the results depend on the processing

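The count of 18 snRNA genes was 18 at distances of 100 and 500 bp, from the 5′ end, by peak overlap and with all ranked peaks past an IDR of 0.01, and 20 in the conservative list. It was 9 to 11 in the lists of single replicates and 8 with peaks at or above the median signal. Among snRNA genes other than spliced leaders, 11 as reported, it was 4 to 6 in the replicate lists and 3 with the stronger peaks. Summits near snRNA genes, 19 as reported, numbered 9 to 11 in the replicate lists. The median position of -2.5 bp was 7.5 bp in the conservative list. The pathway count of 3 was 0 to 1 in the replicate lists. The causes of these differences were not tested. The 7 spliced leader genes were 5 to 8 under every alternative run. Limits are the unknown depth, the small families, repeated sequence and the absence of a control here. No paired analysis was possible because the design has 1 group.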

Other observations

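A further upstream word was noticed after the values had been seen. CTGCCGCC, within 100 bp upstream on the gene's strand, was at 7 snRNA genes, of which 5 were among the 18 genes with a pooled summit and 2 among the 111 without. It was at 4 of the 6 U6-type genes with a summit and at 0 of the 16 without. Of 19973 coding genes, 0.0401% held it on the gene's strand and 0.0801% on either strand. Some of these U6-type genes have near-identical upstream sequence, so they are not independent, and the word was not tested.

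Ensembl gives copies of a sequence the same name. It names 14 of the snRNA genes R07E5.16 and 10 of them sls-1.10, and the 129 genes carry 94 distinct names. The peak of signal 180.7 lies at the gene that RefSeq calls W05B2.8 and Ensembl R07E5.16, while the gene that RefSeq calls R07E5.16 had a signal of 71.23.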
